A study of Mus musculus with 3 samples.

Results

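The MHC class II antigen presentation genes were taken as 8 listed symbols: Cd74, H2-Aa, H2-Ab1, H2-Eb1, H2-DMa, H2-DMb1, Ciita and Ctss. All 8 of 8 were found once among the 28001 features of the deposited matrix. The study measured single cells of the nucleus accumbens, a ventral striatal region, of Thy1::ChR2 mice, which carry the light-gated channel channelrhodopsin under the neuronal Thy1 promoter. All 3 samples form 1 group: each was labelled with FLiCRE, a calcium- and light-dependent recorder, while ChR2 was stimulated in the nucleus accumbens, and each came from a coronal dissection of 400 um. No unstimulated or unlabelled mice were analysed here, so levels were compared between cell classes within the same libraries. The labels used here give neither the age of the animals nor how many were pooled.

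MHC class II molecules are pairs of an alpha and a beta chain that show peptides from engulfed material to CD4 T cells. New chains are held by the invariant chain CD74, which proteases such as cathepsin S trim in the endosome, and the DM complex then exchanges the remaining fragment for a peptide. Transcription of these genes depends on the coactivator CIITA, and in brain tissue the molecules are known mainly from macrophages at the borders, infiltrating immune cells and activated microglia.

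The annotation GENCODE M21 (GRCm38) places 5 of the 8 genes in the major histocompatibility complex on chromosome 17: H2-Ab1 at chr17:34257689-34269419 (plus strand), H2-Aa at chr17:34282744-34287823 (minus), H2-Eb1 at chr17:34305867-34316674 (plus), H2-DMa at chr17:34119541-34139101 (plus) and H2-DMb1 at chr17:34153072-34160230 (plus). Ciita lies at chr16:10480059-10528418 (plus) and Ctss at chr3:95526786-95556403 (plus). H2-DMa shares exonic bases with Brd2 on the opposite strand, and Ciita with Dexi on the opposite strand. The strand setting of the counting is not given in the sources used here, so the values of both genes are uncertain to that extent. H2-DMb1 has a near-identical copy, H2-DMb2, with which it can share reads.

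RefSeq start sites (GRCm38.p6) were found for 5 of the 8 members. The promoters of 3 of them are shown because these genes are high in the same cells below while only some of them hold the letters of the inverted CCAAT core known from the Y box of classical class II promoters. Each line gives the 120 bases that end just before the start site, 5′ to 3′ on the gene's strand, and capitals mark the 6-letter motif GATTGG or its reverse complement CCAATC.
H2-Aa (minus strand, chr17:34287824-34287943): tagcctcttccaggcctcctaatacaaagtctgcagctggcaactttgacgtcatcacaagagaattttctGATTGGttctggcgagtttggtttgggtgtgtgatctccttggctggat
H2-Eb1 (plus strand, chr17:34305747-34305866): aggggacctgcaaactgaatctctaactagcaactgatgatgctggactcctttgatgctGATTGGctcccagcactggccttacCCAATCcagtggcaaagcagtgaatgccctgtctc
Ctss (plus strand, chr3:95526666-95526785): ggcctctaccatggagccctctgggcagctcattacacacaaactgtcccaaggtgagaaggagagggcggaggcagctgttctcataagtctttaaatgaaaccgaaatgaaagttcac
The motif began 49 bases before the start of H2-Aa and 60 bases before that of H2-Eb1, which also held the reverse form beginning 35 bases before the start. It began 62 bases before the RefSeq start of H2-DMb1. That window overlaps an annotated exon and, by the GENCODE coordinates above, lies within the gene. The same window held no match in Ctss or at either start site of H2-DMa. Of all 32851 RefSeq windows of this length, 9.67% held the motif on either strand. A match is a description of the letters in this window.

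Cells were assigned to classes by genes that are no members. Kept cells had 300 or more genes, with mitochondrial RNA making up no more than 20% of their UMIs (molecular tags, each counting 1 RNA molecule). Such a cell entered a class when it had at least 2 UMIs of the gate gene (at least 1 for Cd3e) and 0 UMIs of the other 6 gate genes. Of 10291 cells kept, 301 passed the Lyz2 gate (158, 119 and 24 in libraries 1 to 3), 32 the P2ry12 gate (2, 20 and 10), 23 the Cd3e gate (8, 10 and 5), 303 the Cldn5 gate, 257 the Aqp4 gate, 566 the Mog gate and 2657 the Snap25 gate, and 6152 passed none. The libraries held 3066390, 16499307 and 7061226 UMIs, and they are numbered by barcode suffix, which nothing ties to a numbered replicate. They shared 13, 7 and 22 barcode sequences in pairs.

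Against the marker lists, the P2ry12 gate held microglia: all 8 microglial markers were present, with Tmem119 in 78.1% of its cells. Of the 10 macrophage or monocyte markers 4 had UMIs: Pf4, Ms4a6c, Fcgr1 and Plac8. Ms4a7, Mrc1, Ccr2, F13a1 and Ly6c2 were at 0, as was Lyz2, which the gate sets to 0. At least 1 macrophage or monocyte marker was found in 16 of the 32 cells (50%), and 2 or more in 6.25%. A dendritic marker was found in 15.6% of these cells. The Lyz2 gate was mixed. Its macrophage or monocyte list summed to 13709 to 20613 CPM (UMIs of a gene per 1000000 UMIs of the class) and Ms4a7 was found in 50.5% of cells, but the microglial list also summed to 1618 to 2530 CPM, against 13130 to 16992 CPM in the P2ry12 gate of libraries 2 and 3. The classes are therefore called by their gate gene. The Cldn5 (endothelial), Aqp4 (astrocyte), Mog (oligodendrocyte) and Snap25 (neuron) gates each held all 6 markers of their lists in at least 10% of cells. The Cd3e gate held all 6 T cell markers present among the features. In that gate 10 of the 23 cells (43.5%) also had a macrophage or monocyte marker, and 8.70% had 2 or more. A marker shared by myeloid cells (Csf1r, Tyrobp, Fcer1g, C1qa, C1qb or Aif1) was found in 10 of the 23 cells.

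Neurons should lack MHC class II, and their level served as the free-RNA background, since RNA released from broken cells is captured with every cell. Lyz2 itself, before the gates excluded each other, had a UMI in 8.4%, 30.7% and 3.0% of cells with at least 2 Snap25 UMIs in libraries 1 to 3, and in 8.26%, 28.0% and 1.4% of cells with at least 2 Mog UMIs. Library 2 had the highest of these shares in both classes. The gates then left out these cells with a Lyz2 UMI, so the background read from Snap25-gated neurons may be too low. The neuronal level of H2-DMa was above that of the Mog gate in every library, as given below. For that gene the neurons are a comparison level only.

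Cd74, which encodes the invariant chain (chr18:60803848-60812652, plus strand), was high in Lyz2-gated cells of every library, at 3225, 4305 and 5350 CPM, against 72.9, 27.7 and 87.7 CPM in Snap25-gated neurons. The groups did not overlap, but the share of all genes without such overlap was not counted. In the Snap25 gate of library 3, 1 cell held 197 of 213 Cd74 UMIs, and in library 1, 1 cell held 24 of 35. Without the 3 Snap25-gated cells that had at least 10 UMIs of Cd74, H2-Aa, H2-Ab1 and H2-Eb1 together, a set chosen after the data were seen, the neuronal Cd74 level was 16.9, 27.7 and 6.61 CPM. A Cd74 UMI was found in 42.4% (exact 95% binomial interval 34.6 to 50.5), 43.7% (34.6 to 53.1) and 45.8% (25.6 to 67.2) of Lyz2-gated cells, and in 3.06%, 5.87% and 2.72% of neurons. The median depth was 1084.5, 1352 and 1366.5 UMIs in the Lyz2 gate and 1386, 2495 and 3061 UMIs in the Snap25 gate. After each cell was thinned to 1000 UMIs, the shares were 38.9%, 34.9% and 41.6% against 2.15%, 2.4% and 0.721%. These intervals cover counting error only.

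**Figure D1:**
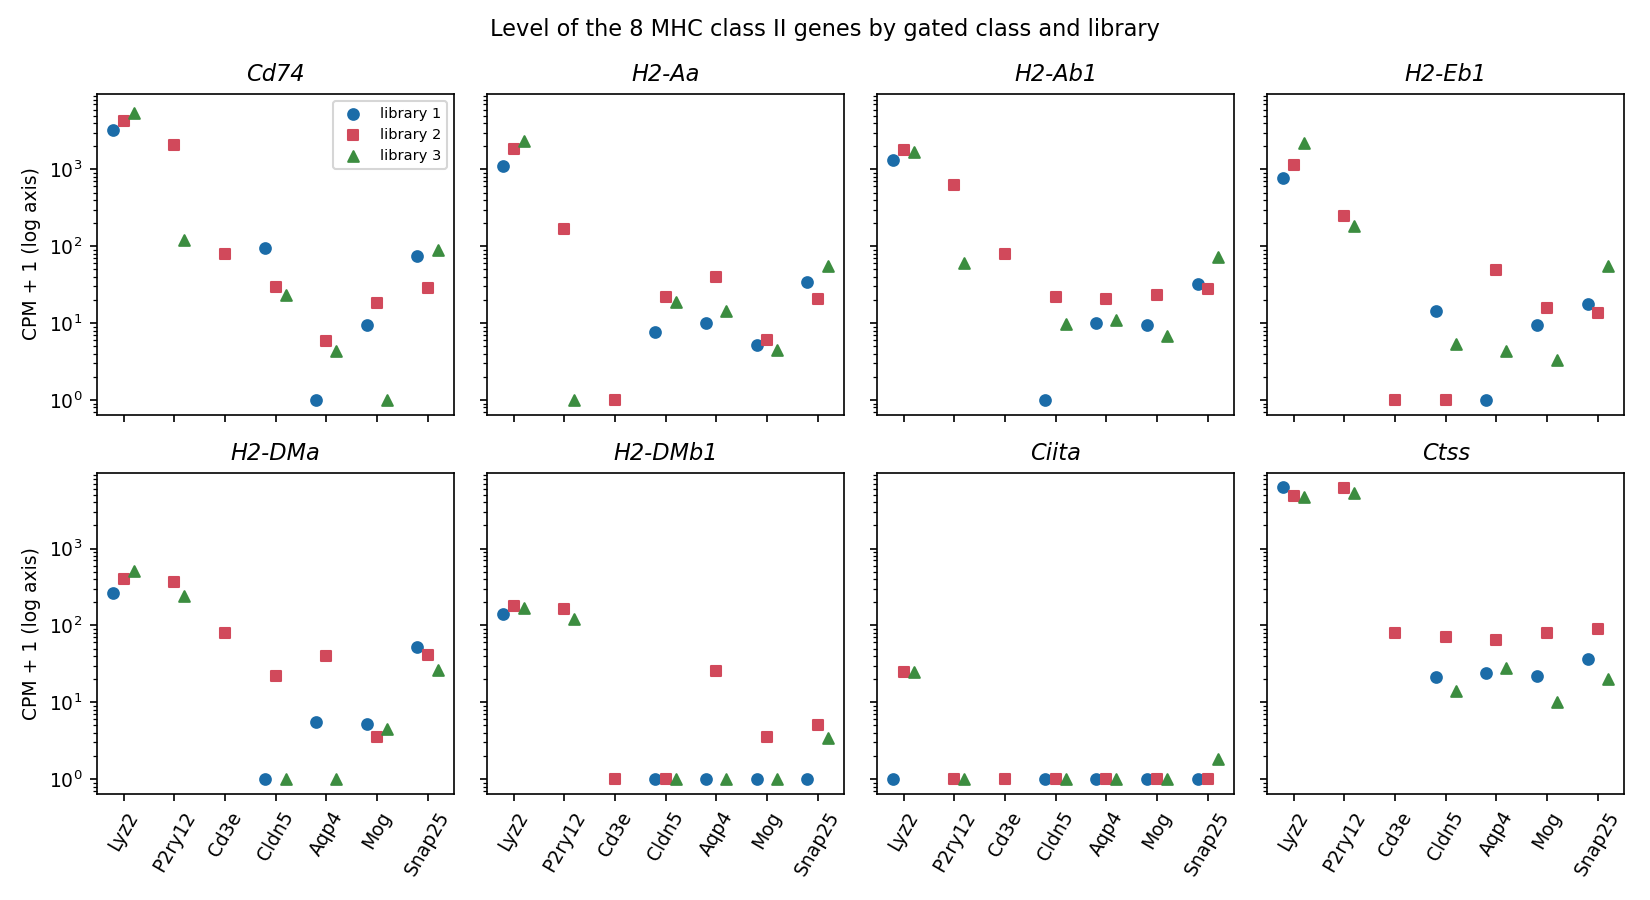
Level of each member (CPM + 1, log axis) in the 7 gated classes, with 1 point per library where a class held at least 10 cells; a point at 1 stands for 0 UMIs. Cd74 lay between 3225 and 5350 CPM in the Lyz2 gate and at or below 93.5 CPM in the Cd3e, Cldn5, Aqp4, Mog and Snap25 gates.

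The classical chain genes followed the same order of classes. H2-Aa, the alpha chain of the I-A molecule, had 1095, 1835 and 2317 CPM in Lyz2-gated cells and 33.3, 19.8 and 54.8 CPM in neurons. H2-Ab1, its beta chain, had 1314, 1802 and 1672 CPM against 31.2, 27.1 and 71.3 CPM. H2-Eb1, the beta chain of I-E, had 772, 1148 and 2197 CPM against 16.7, 12.4 and 53.5 CPM. For each of the 3 genes the lowest Lyz2-gated library was above the highest neuronal one. The share of all genes with this order was not counted. The same Snap25-gated cell of library 3 held 119 of 133 H2-Aa, 154 of 173 H2-Ab1 and 118 of 130 H2-Eb1 UMIs. Without the 3 cells the neuronal levels of library 3 were 5.79, 7.85 and 4.96 CPM. Their UMIs were found in 29.4% to 37.5%, 27.7% to 33.3% and 20.9% to 37.5% of Lyz2-gated cells and in at most 6.86% of neurons of any library.

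The peptide-exchange genes and the protease were also high in this gate. H2-DMa had 260.2, 405 and 502 CPM in Lyz2-gated cells and 52.1, 40.5 and 25.5 CPM in neurons. H2-DMb1 had 139, 179 and 167 CPM against 0, 4.05 and 2.47 CPM. Ctss, which encodes cathepsin S, had 6271, 4813 and 4681 CPM and was found in 96.2%, 79.8% and 75.0% of Lyz2-gated cells. In neurons it had 35.4, 88.2 and 19.4 CPM, with a UMI in 4.59%, 20.8% and 6.08% of cells, so its neuronal level was highest in library 2. The Mog, Aqp4 and Cldn5 gates also had their highest Ctss level in library 2 (79.7, 63.1 and 70.5 CPM).

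Ciita, the coactivator, was close to the detection limit. It had 0, 5 and 1 UMIs in the Lyz2 gate of libraries 1 to 3 (0, 23.5 and 23.9 CPM). For library 1, 3 counts would correspond to 13.5 CPM. No UMI was found in the P2ry12, Cd3e, Cldn5, Aqp4 and Mog gates, and 1 Snap25-gated cell of library 3 held 2. It was the cell with 197 of the 213 Cd74 UMIs of that gate, and without it the gate held 0 Ciita UMIs. Over all cells of the gates, the Lyz2 level was 47.8 times the Snap25 level. The exact 95% interval of 8.54 to 484 covers counting error only, and the Snap25 side of this ratio rests on that 1 cell. Ciita did not pass the filter on low counts and was not tested.

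UMIs were summed per library and class, and edgeR's quasi-likelihood test was run on the sums, with the library as a block and p-values adjusted over all 9682 genes tested. In the Lyz2 gate over the Snap25 gate, 7 of 7 tested members were higher, where 20.2% of all genes were called higher and 24.1% lower. The median log2 fold change of the 7 members was 6.01, beside -0.27 over all genes. Ctss had the largest value, 7.40 (SE 0.46, adjusted p = 2.36e-23), followed by Cd74 at 6.42 (SE 0.53, adjusted p = 5.58e-13). H2-DMb1 stood at 6.07, H2-Aa at 6.01, H2-Eb1 at 5.97, H2-Ab1 at 5.57 and H2-DMa at 3.69, each higher in 3 of 3 libraries. All 7 calls held under each of the 16 alternative settings run, which include leaving out each library. In the Lyz2 gate the share of cells with a UMI was above that of neurons in every library for 7 of the 8 members. Ciita was the exception, and how many of all genes show this order was not counted.

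**Figure D2:**
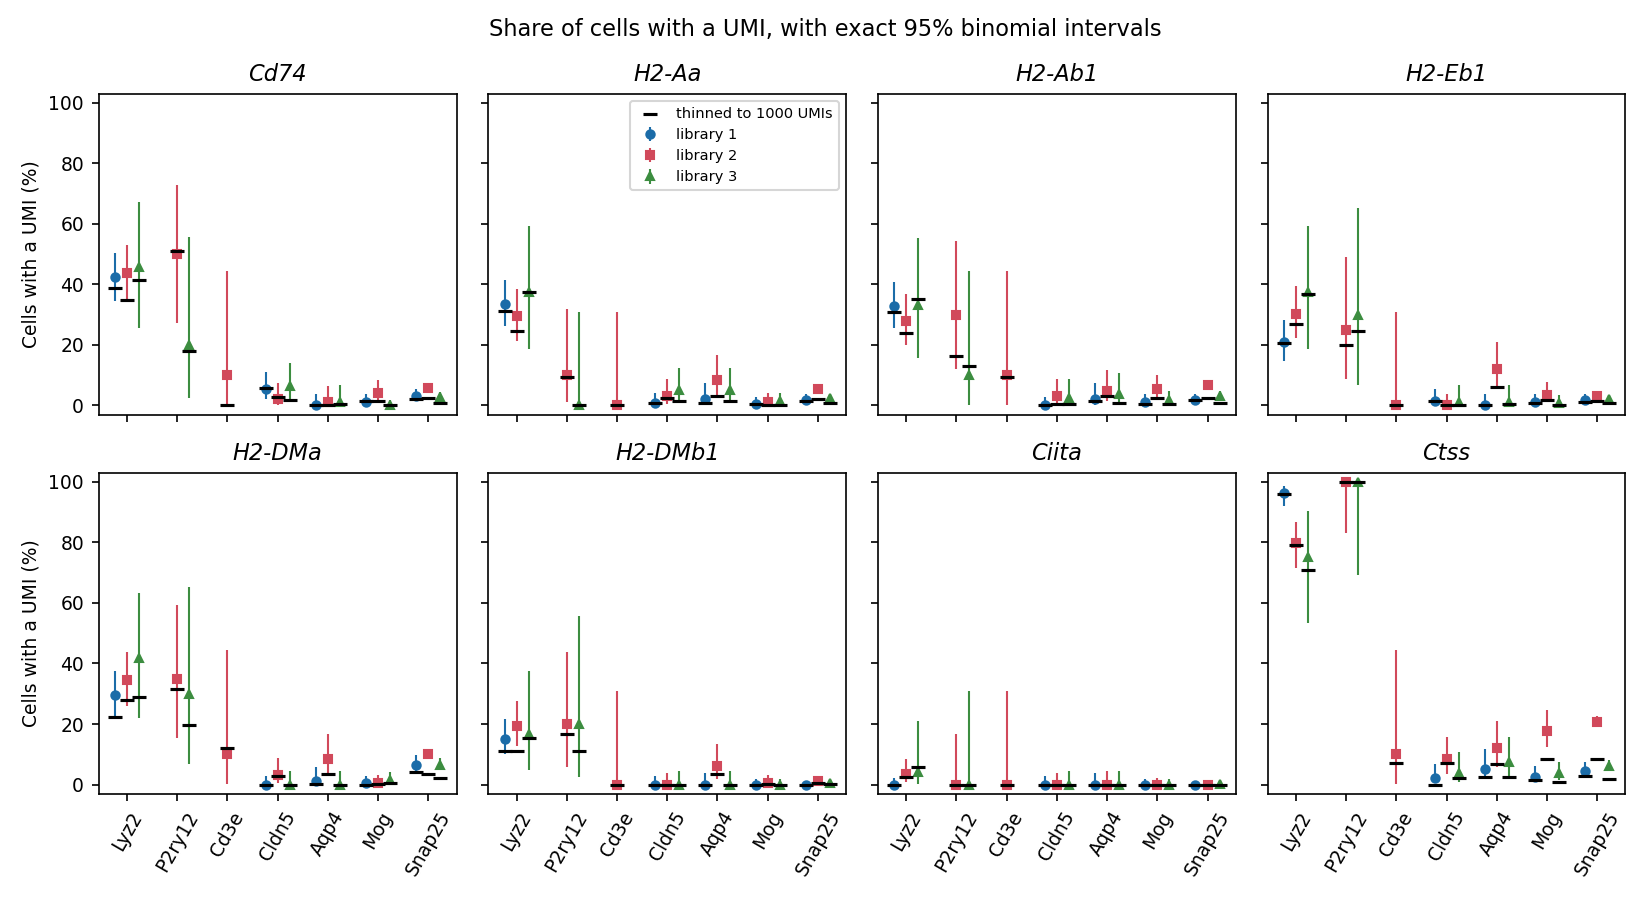
Share of cells with at least 1 UMI of each member by class and library (coloured points, bars are exact 95% binomial intervals) and the share expected after thinning each cell to 1000 UMIs (black dashes). Ctss reached 75.0% to 100% in the Lyz2 and P2ry12 gates, and every other member stayed at or below 50%.

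Microglia differed from the Lyz2 gate by gene. The P2ry12 gate rested on 20 cells in library 2 and 10 in library 3, and on 2 cells in library 1, which were not summed. Ctss had 6133 and 5224 CPM there, with a UMI in 100% of cells of both libraries, which overlaps the range of the Lyz2 gate. H2-DMa had 370 and 240.2 CPM (9 and 4 UMIs) and H2-DMb1 165 and 120.1 CPM (4 and 2 UMIs). For library 3 of this gate, 3 counts would correspond to 180.1 CPM. Cd74 had 2058 CPM in library 2 (50 UMIs in 10 of 20 cells) but 120.1 CPM in library 3 (2 UMIs). H2-Ab1 had 617 and 60.04 CPM, H2-Eb1 247 and 180.1 CPM, and H2-Aa 165 and 0 CPM. The chain genes of microglia therefore rested mainly on library 2, where 2 cells held 39 of the 75 UMIs of Cd74, H2-Aa, H2-Ab1 and H2-Eb1.

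In the P2ry12 gate over the Snap25 gate, 5 of 7 tested members were higher, where 6.81% of all genes were called higher and 15.2% lower. These were Ctss (log2 fold change 6.45, SE 0.48, edgeR adjusted p = 4.30e-19), H2-DMb1 (4.86, SE 1.06, 0.00041), Cd74 (3.72, SE 0.67, 6.76e-05), H2-DMa (2.44, SE 0.63, 0.0029) and H2-Ab1 (2.39, SE 0.68, 0.0086). H2-Eb1 had 2.28 (SE 0.95, edgeR adjusted p = 0.080) and H2-Aa 0.77 (SE 0.97, 0.61). The median of the 7 members was 2.44, beside -1.51 over all genes. The P2ry12 gate had sums in libraries 2 and 3 only, so a fit without either one sets a lone microglial sum against neurons and takes its spread from the other classes. Without library 2, only Ctss passed, and Cd74 had a log2 fold change of -0.17 and H2-Ab1 of -0.78, both opposite in sign. The remaining library 3 levels in the P2ry12 gate, 120.1 CPM for Cd74 and 60.04 CPM for H2-Ab1, were there set against neurons at 87.7 and 71.3 CPM, or 6.61 and 7.85 CPM without the cell that held most of these UMIs. H2-Eb1 passed without library 3 (3.63, edgeR adjusted p = 0.0496) and H2-DMa did not (2.47, 0.060).

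The difference between the Lyz2 and P2ry12 gates was tested directly. Cd74 and the 3 classical chain genes (together the 4 chain genes below) were higher in the Lyz2 gate: H2-Aa by 5.23 on the log2 scale (SE 0.64, edgeR adjusted p = 9.13e-09), H2-Eb1 by 3.69 (SE 0.70, 0.0024), H2-Ab1 by 3.18 (SE 0.56, 0.00036) and Cd74 by 2.70 (SE 0.60, 0.012). The level was higher in 2 of 2 libraries for each of them. H2-DMa (1.25, SE 0.55, 0.29), H2-DMb1 (1.22, SE 0.75, 0.46) and Ctss (0.95, SE 0.45, 0.34) did not pass. So 4 of 7 members were called higher, where 0.826% of all genes were called higher and 0.124% lower. At an unadjusted edgeR p under 0.05, 6 of the 7 were higher, all but H2-DMb1. The share of all genes at that unadjusted p was not counted. The median log2 fold change was 2.70 for the members and 1.08 for all genes. The fold changes above include this shift over all genes, and those of H2-DMa, H2-DMb1 and Ctss lay close to it. By CPM, Ctss was lower in the Lyz2 gate in libraries 2 and 3, at 4813 and 4681 CPM against 6133 and 5224 CPM. That order is opposite to the sign of its fold change. Without library 3 only H2-Aa passed, and with a gate minimum of 1 UMI no member passed. Without library 1, Cd74 no longer passed (2.79, edgeR adjusted p = 0.16). Without library 2, which held most microglial UMIs of these genes, the values were larger, at 6.23 for Cd74 and 6.04 for H2-Ab1, and H2-Aa was then compared with a sum of 0 UMIs. Without library 2 or 3 the microglial arm is again a lone sum, assumed to vary like the other classes.

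**Figure D3:**
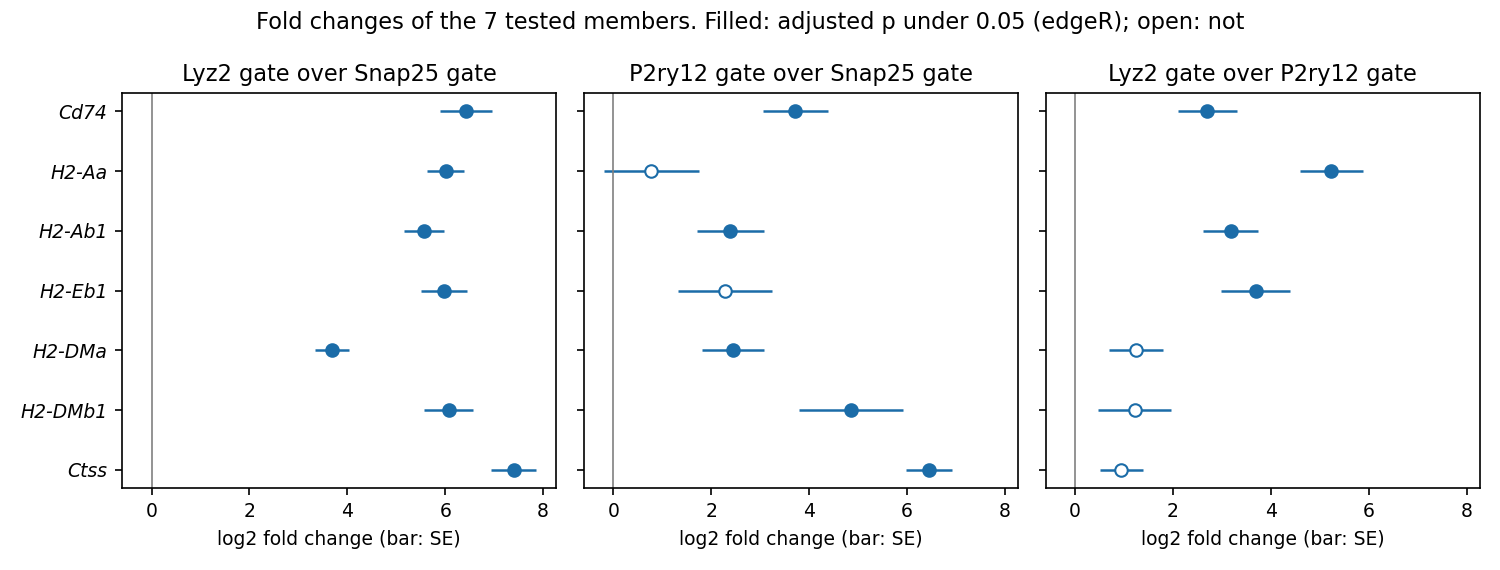
Log2 fold change (points) with its SE (bars) of the 7 tested members in 3 comparisons of summed counts; filled points have an edgeR adjusted p under 0.05. Cd74, H2-Aa, H2-Ab1 and H2-Eb1 were 2.70 to 5.23 higher in the Lyz2 gate than in the P2ry12 gate. The open points of H2-DMa, H2-DMb1 and Ctss lay between 0.95 and 1.25, close to the median of 1.08 over all genes.

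Within the Lyz2 gate the chain genes were unevenly spread over cells. Cd74, H2-Aa, H2-Ab1 and H2-Eb1 together had 0 UMIs in 147 of 301 cells (48.8%), 1 to 9 UMIs in 91 cells and at least 10 UMIs in 63 cells, which held 93.4% of the UMIs. The share of cells with at least 10 UMIs was 19.6%, 20.2% and 33.3% in libraries 1 to 3. In library 2 a single cell held 634 of 1932 UMIs. The cells with at least 10 and with 0 UMIs had a median depth of 1344 and 1207 UMIs, with 1248 and 1034 in library 1, 1377 and 1352 in library 2 and 1916 and 1318 in library 3. Of the 9 macrophage or monocyte markers beside the gate gene, 5 were found in a larger share of the cells with at least 10 than of those with 0: Ccr2, a receptor of monocytes (23.8% and 3.4%), Plac8 (15.9% and 4.08%), Ly6c2 (6.35% and 0%), Ms4a6c (49.2% and 41.5%) and Fcgr1 (30.2% and 23.8%). The other 4 were found in a smaller share: Pf4 (9.52% and 19.7%), F13a1 (3.17% and 11.6%), Mrc1 (1.59% and 8.84%) and Ms4a7 (50.8% and 53.1%). These marker values were looked up after the split was seen and are a description.

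**Figure D4:**
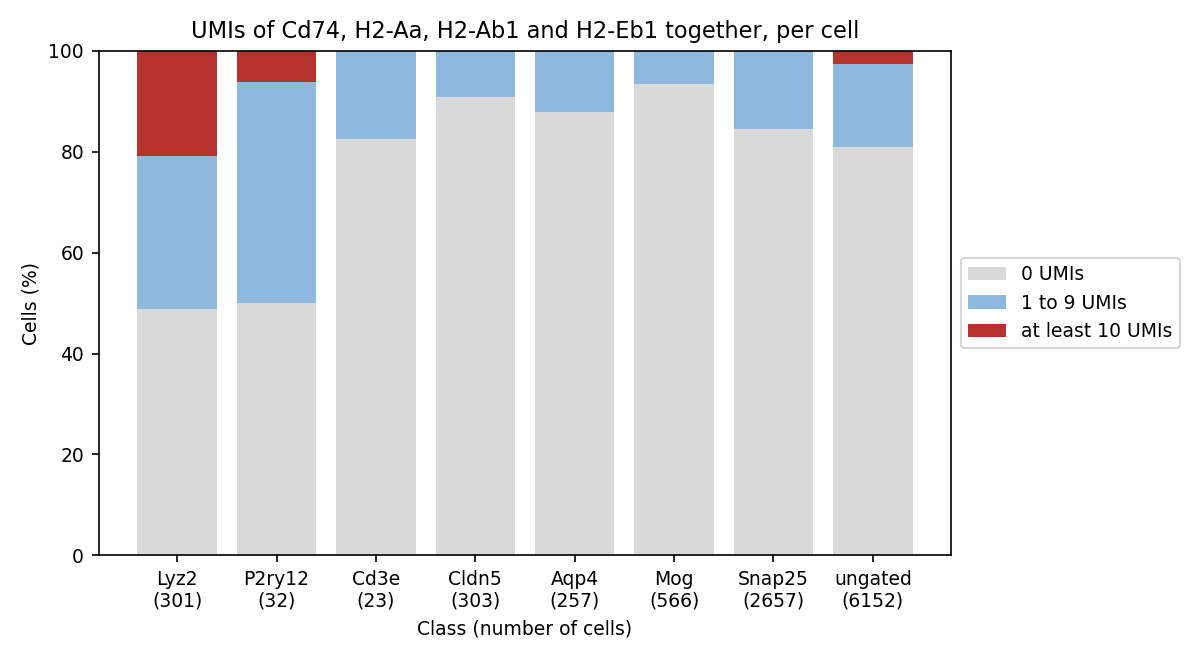
Percentage of cells with 0, 1 to 9 and at least 10 UMIs of Cd74, H2-Aa, H2-Ab1 and H2-Eb1 together, for each gate and for the 6152 cells of no gate, all libraries joined. The top level reached 20.9% of Lyz2-gated, 6.25% of P2ry12-gated and 0.113% of Snap25-gated cells.

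The chain genes were mostly found together. Of 130 Lyz2-gated cells with a Cd74 UMI, 66.9% also had H2-Aa, 58.5% H2-Ab1 and 53.8% H2-Eb1. Of the 171 cells without Cd74, 5.85%, 9.94% and 4.68% had these genes. The median depth of the cells with and without Cd74 was 1249.5 and 1181 UMIs. H2-DMa followed with 52.3% against 17.5% and H2-DMb1 with 28.5% against 8.19%. All 5 Lyz2-gated cells with a Ciita UMI had Cd74. Ctss had 93.1% against 84.2% over all libraries, and it was lower in the Cd74 cells of library 3 (63.6% of 11 against 84.6% of 13). The H2-Aa, H2-Ab1, H2-Eb1, H2-DMa and H2-DMb1 shares were higher in the Cd74 cells in 3 of 3 libraries. How many of all genes show this order was not counted. By library, the median depth with and without Cd74 was 1236 and 1023 UMIs in library 1 and 1266 and 1416 in library 2. In library 3 it was 1415 and 1318 UMIs.

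**Figure D5:**
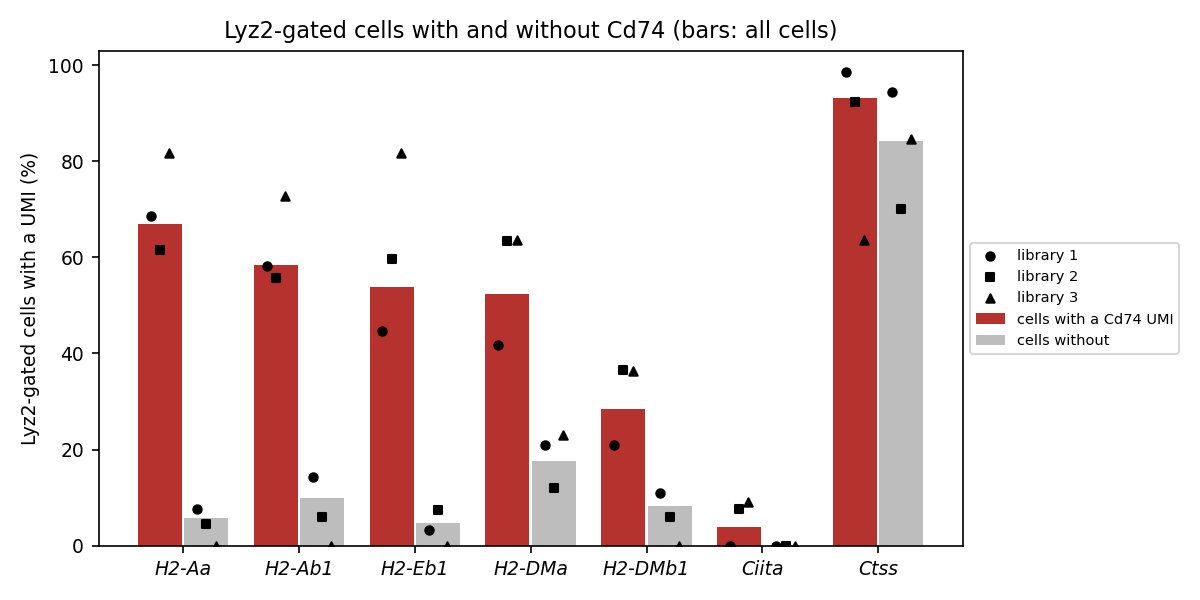
Percentage of Lyz2-gated cells with a UMI of each other member, for cells with a Cd74 UMI (red, 130 cells) and without (grey, 171 cells); bars are all cells joined and symbols single libraries. H2-Aa was found in 66.9% against 5.85%, and Ctss in 93.1% against 84.2%.

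T cells, the partners of class II, had few member UMIs. In the 23 Cd3e-gated cells Ctss had 3 UMIs, Cd74 2, H2-Aa, H2-Ab1 and H2-DMa 1 each, and H2-Eb1, H2-DMb1 and Ciita 0. For a count of 0 in 23 cells the exact 95% interval reaches 14.8% of cells with a UMI. Only library 2 had the 10 cells needed for a sum, so the lone sum was assumed to vary like the other classes. In that library 2 of the 8 members, Cd74 and H2-Ab1, had a share of cells above that of neurons, each with 1 UMI. EdgeR called 0 members in either direction over neurons, 0 at an unadjusted p under 0.05, and DESeq2 called 0, where edgeR called 1.6% of all genes higher and 1.92% lower. The SE of the members ran from 1.63 to 11.1 on the log2 scale, so this fit gives no information on whether the levels differ. Among genes of the T cell side, Cd8b1 had 9 UMIs in 5 of these cells and Cd8a 5 UMIs in 4, while the co-receptor of class II, Cd4, had 2 UMIs in 1 cell.

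In endothelial cells, astrocytes and oligodendrocytes, none of the 7 tested members was higher than in neurons by edgeR. The share of all genes called higher in the Cldn5, Aqp4 and Mog gates was 21.5%, 21.6% and 23.6%. At an unadjusted p under 0.05 the count of higher members was 0 in each gate, and it was 0 with DESeq2. Cd74 had 93.5, 28.2 and 21.9 CPM in the Cldn5 gate, 0, 4.85 and 3.32 CPM in the Aqp4 gate and 8.46, 17.4 and 0 CPM in the Mog gate of libraries 1 to 3. The Cldn5 range overlapped the neuronal one, and the Aqp4 and Mog ranges lay below it. Without the 3 Snap25-gated cells the neuronal range was 6.61 to 27.7 CPM, which the Mog range overlapped. Without them Cd74 was higher than in neurons in the Cldn5 gate (1.74, edgeR adjusted p = 0.016). There 1 cell, which was kept, held 7 of the 14 Cd74 UMIs of library 1. In the Aqp4 gate 1 member was higher under each of 2 looser exclusions between gates. The share of cells with a UMI was above that of neurons in every library for 0 of the 8 members in the Cldn5 and Mog gates and for 1, H2-Aa, in the Aqp4 gate (2.11%, 8.43% and 5.06% against 1.83%, 5.34% and 2.4%). The Aqp4-gated cells of library 1 were deeper, with a median of 2162 UMIs against 1386, and after thinning to 1000 UMIs the order there turned, to 0.69% against 1.6%, which leaves 0 members.

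Several members were called lower in these gates than in neurons. In the Mog gate 4 of 7 were lower, Cd74, H2-Aa, H2-Ab1 and H2-DMa, where 27.9% of all genes were called lower. In the Cldn5 gate H2-Ab1 and H2-DMa were lower (25.3% of all genes), and in the Aqp4 gate Cd74 was lower (23.6% of all genes), so the counts in these last gates are close to the background. Cd74 had 2 UMIs in the Aqp4 gate and 378 in neurons, a CPM ratio of 18.1 over all cells. Its exact 95% interval of 4.97 to 149.7 covers counting error only. It does not take into account that 1 Snap25-gated cell of library 3 held 197 of the 378 UMIs. Of these 7 calls, 5 were lost when the 3 Snap25-gated cells with at least 10 UMIs of the 4 chain genes were left out. The cell in library 3 held 588 of the 1131 such UMIs of the gate. It had UMIs of 1 of the 6 neuronal markers, Snap25 itself, and of 2 of the 6 shared myeloid markers. The other 2, in library 1, had UMIs of all 6 neuronal markers between them. Ms4a6c, a marker of monocytes, had a UMI in 3 of the 3 cells, and the dendritic cell markers Ccr7, Itgax and Zbtb46 in the cell of library 3. Leaving out single libraries also ended calls: Cd74 was not called in the Aqp4 gate without library 1 (-3.55, edgeR adjusted p = 0.092), nor in the Mog gate without library 1 (-2.81, 0.052) or library 3 (-1.36, 0.11). H2-Ab1 was not called in the Mog gate without library 3 (-0.53, edgeR adjusted p = 0.51), nor in the Cldn5 gate without library 1 (-1.63, 0.13) or library 3 (-1.38, 0.21). Without library 2, the Cd74 values were -4.71 in the Mog gate and -4.84 in the Aqp4 gate.

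When the 3 cells were left out, an alternative chosen after the data were seen and on the members' own values, Cd74, H2-Aa and H2-Ab1 no longer passed as lower in any of these gates. In the Mog gate, Cd74 had a log2 fold change of -0.76 (edgeR adjusted p = 0.40) in place of -2.71, H2-Aa -0.91 in place of -2.59, and H2-Ab1 0.14 in place of -1.50. Cd74 in the Aqp4 gate had -2.10 (edgeR adjusted p = 0.13) in place of -4.04. In the Cldn5 gate, H2-Ab1 had -0.33 in place of -1.93, and Cd74 became higher than in neurons, at 1.74 (SE 0.62, edgeR adjusted p = 0.016). Its levels there were 93.5, 28.2 and 21.9 CPM against 16.9, 27.7 and 6.61 CPM. No Cldn5-gated cell was left out, although 1 held 7 of the 14 Cd74 UMIs of library 1 and 1 held 3 of the 4 of library 2. The Lyz2 gate gained distance, with Cd74 at 8.50 in place of 6.42, and in the P2ry12 gate H2-Eb1 passed (3.91, edgeR adjusted p = 0.00060).

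H2-DMa kept its neuronal excess over the Mog and Cldn5 gates. It had 52.1, 40.5 and 25.5 CPM in neurons against 4.23, 2.49 and 3.46 CPM in the Mog gate, with a UMI in 6.42%, 10.3% and 6.56% of neurons and in 0.529%, 0.595% and 1.44% of Mog-gated cells. The groups did not overlap, and again the share of all genes without overlap was not counted. After thinning to 1000 UMIs the shares were 4.1%, 3.64% and 2.22% against 0%, 0.185% and 0.537%. The log2 fold change in the Mog gate was -2.77 (SE 0.61, edgeR adjusted p = 7.75e-05) and -2.54 (SE 0.62, adjusted p = 0.00036) without the 3 cells, and the call held without each library (-2.52 to -3.55). In the Cldn5 gate, which held 3 H2-DMa UMIs, all in library 2, the corresponding values were -2.33 (SE 0.76, edgeR adjusted p = 0.0080) and -2.11 (SE 0.78, adjusted p = 0.019). Over all cells the neuronal level was 6.31 times the Cldn5 level, with an exact 95% interval of 2.14 to 30.8 for counting error only. Without library 1 the Cldn5 call was lost (-1.74, edgeR adjusted p = 0.12), and without library 3 as well (-2.05, 0.052). In the Aqp4 gate H2-DMa had 4.56, 38.8 and 0 CPM and was not called (-1.16, edgeR adjusted p = 0.085).

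Other values that could move with the neuronal H2-DMa level were read beside it. The 6 shared myeloid markers (Csf1r, Tyrobp, Fcer1g, C1qa, C1qb and Aif1) all had UMIs in both classes and summed to 137, 361 and 109 CPM in neurons and to 186, 311 and 51.9 CPM in the Mog gate. H2-DMa made up 21.6%, 18.4% and 8.09% of the members' UMIs in neurons and 1.99%, 2.79% and 2.97% in the Lyz2 gate. Brd2, the gene on the opposite strand, had 127, 100.5 and 135 CPM in neurons and 102, 49.8 and 109.5 CPM in the Mog gate. Among neurons with an H2-DMa UMI, 19.0%, 24.0% and 46.3% had a Brd2 UMI, against 16.8%, 22.9% and 39.2% of all neurons. The part of Brd2 in the H2-DMa counts was not tested.

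Genes that act beside the members in antigen processing were read from lists that hold no member. Of 11 accessory genes, 7 passed the filter on low counts, and 6 of these were higher in the Lyz2 gate than in neurons and 0 lower, where 20.2% and 24.1% of all genes were. The highest were Ifi30, a thiol reductase that unfolds antigens (log2 fold change 5.68), and Ctsd, cathepsin D (5.62). The lowest were March8 (1.25, edgeR adjusted p = 0.054) and March1 (1.23, adjusted p = 0.031), ubiquitin ligases that lower class II at the surface. In the P2ry12 gate 5 of the 7 were higher and 0 lower, led by Ifi30 (5.18) and Lgmn, an endosomal protease (5.02), with March1 (1.43) and March8 (-0.19) lowest and not passing. The list's median was 4.26 in the Lyz2 gate and 2.52 in the P2ry12 gate, where 6.81% of all genes were called higher. In the Aqp4 gate 4 of the 7 were higher and 1 lower (median 1.23). In the Mog gate 4 and 0 were (median 0.86) and in the Cldn5 gate 0 and 1 (median 0.53). Of all genes, 21.6%, 23.6% and 21.5% were called higher in these gates and 23.6%, 27.9% and 25.3% lower. Between the Lyz2 and P2ry12 gates only Ctsb, cathepsin B, passed (2.78, edgeR adjusted p = 9.93e-05). March8 followed at 1.44, and March1 (-0.20) and Lgmn (-0.35) were lowest. The DO chain genes H2-Oa and H2-Ob, which act on DM mainly in B cells, had 4 UMIs each in the Lyz2 gate and were not tested.

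Of 13 regulators, 11 were tested. In the Lyz2 gate over neurons 7 were higher and 1 lower (median 1.93), where 20.2% and 24.1% of all genes were. Spi1, the myeloid factor PU.1, had 6.32 and Irf8 5.23, while Nfyb had -0.68 and did not pass. Nfyc, a subunit of the factor that binds the CCAAT motif, was lower (-2.76, edgeR adjusted p = 0.0040). It had 2 UMIs in the Lyz2 gate and 321 in neurons, or 4.19 and 42.2 CPM. In the P2ry12 gate 4 were higher and 0 lower (median 1.199), where 6.81% and 15.2% of all genes were. Spi1 (6.33) and Irf8 (5.09) were again highest, and Nfyc (-1.56) and Nfyb (-2.16) were lowest and did not pass. Between the Lyz2 and P2ry12 gates edgeR called 0 of the 11 regulators, where 0.826% of all genes were called higher and 0.124% lower. The regulators' values ran from 1.70 for Nfya and 1.48 for Nfyb to -0.32 for Irf1 and -1.20 for Nfyc. Rfx5 and Rfxank, which hold CIITA at class II promoters, had 4 and 3 UMIs in the Lyz2 gate and were not tested. In the Cldn5, Aqp4 and Mog gates 3 of the 11 were higher in each, where 21.5%, 21.6% and 23.6% of all genes were. In the same gates 0, 1 and 1 were lower, where 25.3%, 23.6% and 27.9% of all genes were. The higher counts of these gates are close to the background.

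Of 7 costimulation genes, 3 were tested, and all 3 were higher in the Lyz2 gate than in neurons: Cd86, a ligand of CD28 (5.59), Cd274, which encodes PD-L1 (3.84), and Cd83 (3.82). In the P2ry12 gate Cd86 (5.69) and Cd83 (4.83) were higher, and Cd274 had 2.48 (edgeR adjusted p = 0.40). Cd274 was also higher than in neurons in the Cldn5 (2.45), Aqp4 (2.50) and Mog (2.52) gates, and Cd83 was lower in the Mog gate (-2.06). The share of all genes called higher was 20.2%, 6.81%, 21.5%, 21.6% and 23.6% in the Lyz2, P2ry12, Cldn5, Aqp4 and Mog gates. No costimulation gene was called between the Lyz2 and P2ry12 gates. Lag3, an inhibitory receptor for class II listed with the T cell genes, had 18 UMIs in 11 of 32 P2ry12-gated cells, 14 UMIs in 12 of 301 Lyz2-gated cells and 0 in the 23 Cd3e-gated cells. Of the 8 genes of that list, 2 were tested. Lag3 was lower by edgeR in the Lyz2 gate than in the P2ry12 gate, by a log2 value of -3.04 (SE 0.73, adjusted p = 0.013), and higher than in neurons in both (3.35 and 6.39). Cd4, the other gene tested, had 1 UMI in the Lyz2 gate and 248 in neurons, or 2.09 and 32.6 CPM. It was called lower in the Lyz2 gate (edgeR adjusted p = 0.0022). In the P2ry12 gate Cd4 had 0 UMIs and was not called against neurons (-7.25, edgeR adjusted p = 0.16). That gate held only 42788 UMIs of all genes, so its 0 does not show a lower level.

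The genes most like the chain genes were those whose log2(CPM + 10) over the 18 class-by-library sums had the highest Pearson r with the mean of Cd74, H2-Aa, H2-Ab1 and H2-Eb1. The first 10 were Ccl4 (r = 0.96), Clec4n (0.96), Mnda (0.95), Ccl6 (0.94), Ms4a6d (0.94), Cxcl16 (0.94), Pkib (0.93), Wfdc17 (0.93), Pf4 (0.93) and Clec4a2 (0.93). H2-DMb1 had 0.89, H2-DMa 0.87 and Ctss 0.87. Ccl4, a chemokine, had 367 CPM in the Lyz2 gate, 210.3 CPM in the P2ry12 gate and 6.31 CPM in neurons over all libraries. Wfdc17, a secreted protease-inhibitor family member, had 2202, 46.7 and 16.4 CPM. The sums share libraries and depth, so the values are a description. With a pseudocount of 1, 4 of the 10 genes were again among the first 10.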

How the data were processed

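The authors made libraries with the 10x Genomics 3′ v2 kit, per the labels, and deposited 1 matrix of raw UMI counts for 11625 cells, made with Cell Ranger 3.0 on mm10 per the submitters' processing notes. Annotation and strand setting are not given in the sources used here. Barcode suffixes separate 3 libraries. The median depth of kept cells was 992.5, 2123 and 2705 UMIs. Separate animals are not stated, so p-values measure the spread between libraries. The members and lists were chosen with earlier results of these data known.

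Classes were set by the gates in the text; no doublet caller was run, and cells with UMIs of 2 gate genes entered no class. Counts were summed per library and class with at least 10 cells and fitted in 1 model with edgeR 4.0.16 (TMM, filterByExpr, robust prior, legacy = FALSE, library as block, Benjamini-Hochberg at 0.05). The prior settings came from earlier work on these data. SE is the log2 fold change divided by the root of F. On simulated data the fit was tested for the Lyz2 and Snap25 gates. DESeq2 1.42.0 was an alternative. Intervals are Clopper-Pearson at 95%. Thinned shares are expected values at 1000 UMIs per cell, with shallower cells left out. The block follows from the sums of a class pair coming from 1 library. Named genes are the 8 members, the 2 highest and 2 lowest log2 fold changes of each list, and the 10 nearest profiles; H2-Oa, H2-Ob, Rfx5, Rfxank, Cd8a, Cd8b1 and Brd2 were added after their values were seen. Protein sequences were not used here.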

Additional observations from a re-analysis of the deposited data

Results flagged for a closer look

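Most UMIs of the chain genes lay in cells that no comparison used. Cells of no gate held 70.7% of all 17639 UMIs of Cd74, H2-Aa, H2-Ab1 and H2-Eb1, and 2.67% of these 6152 cells (164) had at least 10, against 0.113% of Snap25-gated neurons. Of the 164 cells, 70 had UMIs of 2 or more gate genes, 59 had none of any gate gene and 35 had 1 gate gene below its minimum. The share of neurons is the background for this value.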

How the results depend on the processing

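The calls of the Lyz2 gate over the Snap25 gate held under all 16 alternative settings, 3 of which were chosen after the data were seen; the gates of few cells and the lower calls did not. The log2 fold changes followed through the settings were 28: all 21 of the comparisons with the Lyz2 or P2ry12 gate and the 7 called in the Cldn5, Aqp4 and Mog gates. Of their 432 recomputed values, 366 had the same sign and the same call, 53 lost the call and 8 gained it, and 5 changed sign. The P2ry12 and Cd3e gates held 42788 and 29694 UMIs, which limits what they can show, and Ciita was not tested for low counts. The causes were not tested.

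The sums of a library were paired by the library block. Without it, the genes called numbered 160 in place of 341 for the Cd3e gate and 61 in place of 92 between the Lyz2 and P2ry12 gates, and no count of members called moved by over 1.5 times.

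Leaving out 1 library at a time gave 1 to 5 higher members (5 with all) and 583 to 1922 called genes (2127) for the P2ry12 gate over neurons, 224 to 269 called genes for the Cd3e gate, and 1 to 4 higher members (4) and 14 to 62 called genes (92) for the Lyz2 over the P2ry12 gate. Lower members ranged from 0 to 2 (2) in the Cldn5 gate, 0 to 4 (1) in the Aqp4 gate and 2 to 5 (4) in the Mog gate. In the P2ry12 gate over neurons the log2 values ranged from -0.17 to 5.39 for Cd74, from -7.40 to 2.23 for H2-Aa and from -0.78 to 3.88 for H2-Ab1, with the sign changed without library 2. In the remaining library 3, 1 Snap25-gated cell held 197 of 213 Cd74, 119 of 133 H2-Aa and 154 of 173 H2-Ab1 UMIs of the neuronal sum.

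With a gate minimum of 1 UMI, 3 members were higher in the P2ry12 gate over neurons and 0 in the Lyz2 over the P2ry12 gate, 0 were lower in the Cldn5 and Aqp4 gates and 1 in the Mog gate, and H2-Ab1 had 1.80 in the Cldn5 gate. With a minimum of 3 UMIs, 1 was lower in the Cldn5 and 2 in the Mog gate. With 1000 or more UMIs per cell, 3 members and 523 genes were called for the P2ry12 gate over neurons, 1 member and 18 genes between the Lyz2 and P2ry12 gates, and 2 members lower in the Aqp4 gate. With 500 or more genes and no more than 10% mitochondrial UMIs, 620 genes were called for the P2ry12 gate over neurons, and 1 member and 18 genes between the Lyz2 and P2ry12 gates. With up to 1 UMI of each other gate gene, 1 member was lower in the Cldn5 gate, and 1 was higher and 2 were lower in the Aqp4 gate. With no exclusion between gates, 3726 genes were called for the P2ry12 gate and 528 for the Cd3e gate over neurons, 2 members and 154 genes between the Lyz2 and P2ry12 gates, 1 member lower in the Cldn5 gate and 1 higher in the Aqp4 gate. With 5 or more cells per sum, 1963 genes were called for the Cd3e gate, and 2 members were lower in the Aqp4 gate. In the Aqp4 gate 2 members were also lower with no filter on low counts, with the package-default prior, and without the cells of highest UMI total. DESeq2 called 288 genes between the Lyz2 and P2ry12 gates and 1 member lower in the Cldn5 gate. Without the 3 Snap25-gated cells rich in chain-gene UMIs, 1 member was higher and 1 lower in the Cldn5 gate, 0 were lower in the Aqp4 and 1 in the Mog gate, where H2-Ab1 had 0.14; of all 21 values of these 3 gates, called or not, 7 changed sign.

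The members with a share of cells above neurons in every library numbered 0 in place of 2 for the Cd3e gate with 5 or more cells per sum and 1 in place of 0 for the Cldn5 gate after thinning. For the Aqp4 gate they numbered 0 in place of 1 with a gate minimum of 1 UMI, with the stricter cell filter, without the cells of highest UMI total, and after thinning. Too few cells remained for a value of the Cd3e and P2ry12 gates at a minimum of 3 UMIs, and of the Cd3e gate without library 2, with 1000 or more UMIs per cell and with the stricter cell filter.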

Other observations

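The 164 ungated cells with at least 10 chain-gene UMIs carried markers of several antigen-presenting types and of glia and neurons. The part of droplets with RNA of more than 1 cell was not tested. Lyz2 had a UMI in 83 of them, Plac8 in 41 cells and Ccr2 in 31. Of the dendritic cell markers, Cd209a and Ccr7 had a UMI in 9.15% each, Xcr1 and Ccl22 in 7.93% each, Flt3 in 6.71% and Clec9a in 6.10%. Of the B cell markers, Cd79a had one in 6.10% and Ms4a1 in 3.05%. Cells with 2 or more markers of a list made up 56.1% for the macrophage or monocyte list, 29.3% for the microglial list, 17.1% for the dendritic list and 4.88% for the B cell list, and also 32.3% for the oligodendrocyte, 27.4% for the neuron and 20.7% for the astrocyte list. The libraries differed, with 49, 94 and 21 of these cells in libraries 1 to 3. The share was 16.3%, 73.4% and 71.4% for the macrophage or monocyte list and 12.2%, 33.0% and 52.4% for the microglial list. It was 20.4%, 11.7% and 33.3% for the dendritic list and 12.2%, 2.13% and 0% for the B cell list. In the 301 Lyz2-gated cells of all libraries the dendritic and B cell shares were 1.66% and 0%. Fscn1, a dendritic marker that 37.7% of neurons also carried, was found in 17.1%. Clusters were not built, so these cells were given no type.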
